A study of Mus musculus with 2 samples.

Results

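The genes described here are 8 of the selenoprotein genes of the mouse, *Selenop*, *Selenow*, *Selenof*, *Selenok*, *Gpx1*, *Gpx3*, *Gpx4* and *Txnrd1*, out of 54838 genes listed in the count matrices. They are a list of names with no threshold on a value, and were read in every barcode with at least 500 UMIs and 200 genes, which is called a cell here. CD64+ CD45int macrophages were sorted from the sciatic nerves of male Flt3-Cre LSL-YFP fl/fl mice aged 10 to 12 weeks. Cells whose precursors expressed *Flt3* carry YFP in these mice, and the study reads YFP+ macrophages as derived from haematopoietic stem cells (HSCs) and YFP- macrophages as embryonic-derived. Nerves of 19 mice were pooled, and the YFP- and YFP+ cells went into 1 library each on the 10x Chromium v2 platform. Both groups carry the same alleles and were separated by the YFP gate of the sort. Each group was also loaded and made into a library on its own, so origin and library cannot be told apart. With 1 library per group there is no replicate, so no test and no p-value can be given, and every interval (95%, in parentheses) covers counting error only.

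The YFP- library held 1045 cells with a median of 2233 UMIs, and the YFP+ library 4053 cells with a median of 1484 UMIs. They gave 2418044 and 6747554 UMIs in cells, so that 3 UMIs, taken as the floor, stand for 1.24 and 0.445 counts per 1000000 UMIs (CPM). All 10 macrophage markers were found, with a summed level of 32088 CPM for YFP- cells and 32598 CPM for YFP+ cells, while neutrophil and erythroid markers had no UMI. Of the markers of other nerve cells, all 8 Schwann cell genes (715 and 656 CPM in sum), all 8 fibroblast genes (72.0 and 171 CPM) and 5 and 7 of the 7 mural cell genes (12.8 and 132 CPM) were detected. The libraries shared 7 cell barcodes.

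Selenoproteins contain selenocysteine, an amino acid with selenium that is built in at an in-frame UGA codon, a codon that otherwise ends translation. A hairpin in the mRNA recruits the factors that read the codon in this way, and the selenium supply sets how much of these proteins a cell can make. Most selenoproteins are redox enzymes, with glutathione peroxidases and thioredoxin reductases being the best known, and macrophages both produce and must survive the peroxides that these enzymes remove.

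All 8 genes had at least 1 in-frame TGA in the coding sequence of GENCODE M21 (GRCm38), at the positions that this annotation marks as selenocysteine. The first such codon of each gene is shown because it is what the 8 genes share, with the codon in capitals and up to 12 coding bases on either side.
Selenop: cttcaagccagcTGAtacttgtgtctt
Selenow: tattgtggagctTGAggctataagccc
Selenof: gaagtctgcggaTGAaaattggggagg
Selenok: atggctggtggaTGAggaagg
Gpx1: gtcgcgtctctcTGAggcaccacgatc
Gpx3: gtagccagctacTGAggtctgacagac
Gpx4: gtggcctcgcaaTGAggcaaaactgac
Txnrd1: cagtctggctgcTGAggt
*Selenop* was alone among them in holding more than 1, with 10 codons between codon 59 and codon 377 of 380. The 3 peroxidases carried the codon in the first part of the coding sequence, at codon 47 of 201 in *Gpx1*, codon 73 of 226 in *Gpx3* and codon 73 of 197 in *Gpx4*. In *Selenok* and *Txnrd1* it stood close to the end, with 2 and 1 codons after it, so these windows are shorter. In *Selenow* it was codon 13 of 88 and in *Selenof* codon 93 of 162. The codon lies at chr15:3274848-3274850 in exon 2 of *Selenop*, chr11:54907256-54907258 in exon 2 of *Gpx3*, chr9:108339451-108339453 in exon 1 of *Gpx1* and chr10:80054737-80054739 in exon 3 of *Gpx4*. It lies at chr3:144590645-144590647 in exon 3 of *Selenof*, chr14:29973440-29973442 in exon 4 of *Selenok*, chr7:15920464-15920466 in exon 2 of *Selenow*, the only gene of the 8 on the minus strand, and chr10:82896037-82896039 in exon 15 of *Txnrd1*.

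The libraries were first compared in the level of each gene, which is its summed UMIs in CPM over all cells. A UMI marks 1 captured mRNA end, so levels were not divided by length. *Selenop* made up most of the selenoprotein mRNA of these macrophages, with 65.9% (65.2–66.6) of the UMIs of all 24 mouse selenoprotein genes in YFP- cells and 63.6% (63.2–64.0) in YFP+ cells. The 8 genes together held 93.5% and 92.5% of these UMIs. *Gpx3* was the only one of the 8 that differed by more than 1.5-fold between the libraries, and it was lower in YFP+ cells. Of the 5531 genes with a mean level of at least 20 CPM, 404 or 7.30% were past 1.5-fold, 85 or 1.54% being higher and 319 or 5.77% lower in YFP+ cells. Of the 8 genes, 7 reached that level, 1 of them was past 1.5-fold, and *Txnrd1* was below the filter. Their median log2 ratio of YFP+ over YFP- was −0.12, beside −0.002 for all genes compared. Annotated pseudogenes made up 216 of the 319 genes that were lower in YFP+ cells and 243 of all 5531. Among protein-coding genes alone, 92 of 5149 or 1.79% were lower and 77 or 1.495% higher.

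**Figure D1:**
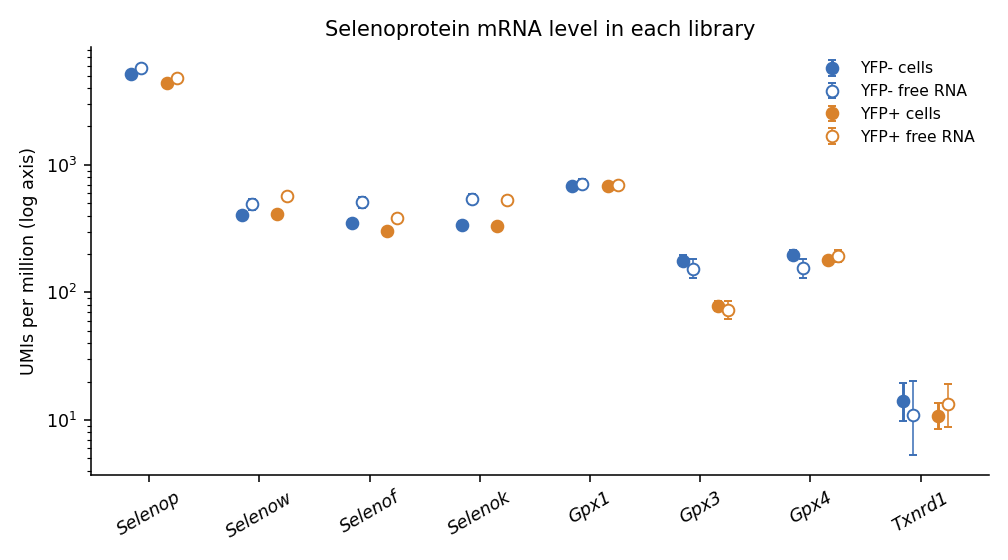
Level of the 8 genes in CPM (log axis) in YFP- (blue) and YFP+ (orange) cells, with the level in free RNA, taken from barcodes with 10 to 100 UMIs, as open points. Bars are 95% Poisson intervals, each point is 1 library, and *Gpx3* is the gene whose YFP- and YFP+ points lie furthest apart, at 177 and 78.1 CPM in cells.

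Of the secreted selenoproteins, *Selenop* encodes the protein that carries selenium through the blood to other tissues. The gene lies on chromosome 15 from 3268547 to 3280508 (ENSMUSG00000064373). It stood at 5157 CPM (5067–5248) in YFP- cells, from 12469 UMIs, and at 4398 CPM (4348–4449) in YFP+ cells, from 29677 UMIs. Its log2 ratio of YFP+ over YFP- was −0.23 (−0.26 to −0.20), a difference beyond counting error but well under 1.5-fold, and 1017 of the 5531 genes had a ratio at or below it.

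*Gpx3*, on chromosome 11 from 54902453 to 54910377 (ENSMUSG00000018339), encodes the glutathione peroxidase that is secreted into plasma. Its 429 UMIs in YFP- cells gave 177 CPM (161–195), and its 527 UMIs in YFP+ cells gave 78.1 CPM (71.6–85.1). The level in YFP- cells was thus 2.26-fold that in YFP+ cells, a log2 ratio of −1.17 (−1.37 to −0.996). Of all 5531 genes, 132 had a ratio at or below that of *Gpx3*, and 118 of these were annotated pseudogenes. Only 12 of the 5149 protein-coding genes were as low or lower, *Gpx3* among them, and these also included mitochondrial genes (*mt-Co2*, *mt-Nd4l*, *mt-Atp8*). Mitochondrial genes as a whole were not lower, with a median share of UMIs per cell of 1.002% in YFP- and 0.999% in YFP+ cells. Whether the shift of the pseudogenes and of these named mitochondrial genes is linked to that of *Gpx3* was not tested. Whether both matrices were counted with the same settings is not given in the sources used here. No other listed gene matched the last 500 bases of the *Gpx3* transcript at 90% identity or more over at least 90 bases, the search that found the copies of *Gpx4* given below. Of the markers of other cell types, the summed fibroblast and mural lists were higher in the YFP+ library, with log2 ratios of 1.24 and 3.27. The adipocyte list (8.27 and 2.52 CPM, *Adipoq* and *Cidec* at 0 in both), the endothelial list (12.0 and 9.93 CPM) and the Schwann cell list were lower, with ratios of −1.40, −0.25 and −0.13, and the part of these cells in the ratio of *Gpx3* was tested only by leaving cells out. Without cells that held 2 or more UMIs of markers of other cell types, 26.6% of YFP- and 20.6% of YFP+ cells, the ratio of *Gpx3* was −1.003. It was −1.19 when *Pmp22*, *Gsn* and *Cd79b*, which macrophages also express, were not counted, a choice made after seeing the data.

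The depth of a cell was higher in the YFP- library, and *Gpx3* was also compared between cells ranked by depth within their own library. These quartiles do not match depth between the libraries. The lowest spanned 501 to 1321 UMIs in YFP- and 500 to 917 in YFP+ cells, and the deepest 3073 to 7457 and 2228 to 9604. With every cell thinned to 500 UMIs, the log2 ratio of *Gpx3* was −1.04. In the quartile of cells with the fewest UMIs, YFP- cells held 144 CPM (100.3–200.3) and YFP+ cells 94.5 CPM (73.3–119.7), and these intervals overlapped. In the next quartiles the levels were 204 and 79.2 CPM, then 195 and 90.4 CPM, and in the deepest quartile 161 CPM (137–188) and 65.9 CPM (57.0–75.8). *Gpx3* was lower in the YFP+ cells of all 4 quartiles, with log2 ratios from −1.35 to −0.60.

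**Figure D2:**
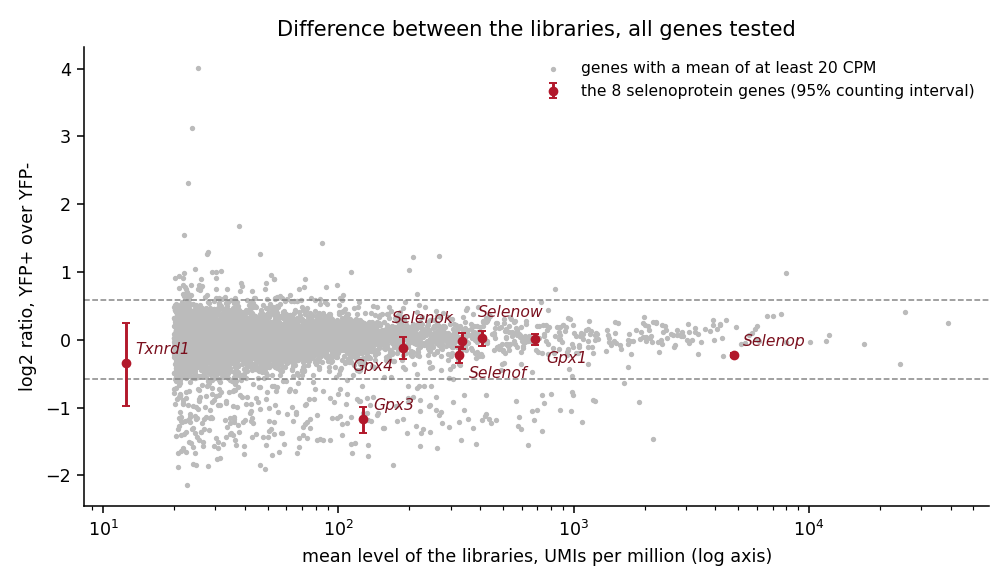
Log2 ratio of YFP+ over YFP- against the mean level (log axis) for the 5531 genes compared (grey) and the 8 selenoprotein genes (red, with 95% counting intervals); dashed lines mark 1.5-fold. *Gpx3* lies below the lower line at −1.17, *Txnrd1* lies left of the 20 CPM filter, and the other 6 lie between the lines.

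Among the peroxidases that act inside the cell, *Gpx1* encodes the cytosolic enzyme that reduces hydrogen peroxide. It lies on chromosome 9 from 108338903 to 108340343 (ENSMUSG00000063856) and was second to *Selenop*, with 681 CPM (648–714) for the YFP- and 685 CPM (665–705) for the YFP+ library. Its log2 ratio was 0.01 (−0.07 to 0.09). *Gpx4* encodes the peroxidase that reduces lipid peroxides in membranes and protects cells from ferroptosis. It lies on chromosome 10 from 80047166 to 80056439 (ENSMUSG00000075706) and was at 196 CPM (178–214) and 179.6 CPM (169.6–190.03), a log2 ratio of −0.12 (−0.28 to 0.03).

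The count of *Gpx4* is uncertain, because the processed pseudogene *Gpx4-ps2* on chromosome 10 (45875291 to 45876086) matched its last 500 bases at 99.8% identity. This pseudogene was listed with 262 UMIs in YFP- and 293 in YFP+ cells, or 108 and 43.4 CPM. A second copy on chromosome 17 had 2 and 3 UMIs. When these UMIs were added to those of *Gpx4*, a choice made after seeing the data, the levels were 305 and 223 CPM and the log2 ratio was −0.45 (−0.58 to −0.32). Of the 243 annotated pseudogenes compared, 216 were past 1.5-fold lower in YFP+ cells, and *Gpx4-ps2* was lower as well. Adding its UMIs thus lowers the ratio. Which of the UMIs came from *Gpx4* itself cannot be told from the counts. Neither the ratio without the copies (−0.12) nor that with them (−0.45) can therefore be taken as the measure of a change in *Gpx4*. None of the other 7 genes had such a copy in this search. Pseudogenes named after *Selenok* are listed in the matrices with few UMIs, at most 6 in YFP- and 5 in YFP+ cells for *Selenok-ps1*.

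*Selenof* and *Selenok* encode selenoproteins of the endoplasmic reticulum, the first a lumenal protein linked to the folding of glycoproteins and the second a membrane protein needed for calcium signals in immune cells. *Selenof*, on chromosome 3 from 144570304 to 144597680 (ENSMUSG00000037072), reached 352 CPM (328–376) among YFP- cells against 301 CPM (288–314) among YFP+ cells. Its log2 ratio of −0.22 (−0.34 to −0.11) was like that of *Selenop* in size and was below 0 beyond counting error. *Selenok*, on chromosome 14 from 29968308 to 29975662 (ENSMUSG00000042682), was at 337 CPM (314–361) and 333 CPM (319–347), with a log2 ratio of −0.02 (−0.13 to 0.10).

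*Selenow* encodes a small selenoprotein of the cytosol with a thioredoxin-like fold. From chromosome 7 at 15917208 to 15922402 (ENSMUSG00000041571), it gave 405 CPM (380–431) among YFP- cells against 411 CPM (396–427) among YFP+ cells, a log2 ratio of 0.02 (−0.09 to 0.13). *Txnrd1* encodes the cytosolic reductase that keeps thioredoxin in its active form. It lies on chromosome 10 from 82833951 to 82897712 (ENSMUSG00000020250) and was rare in both libraries, with 34 UMIs or 14.1 CPM (9.74–19.6) in YFP- and 73 UMIs or 10.8 CPM (8.48–13.6) in YFP+ cells. Its ratio, −0.35 (−0.98 to 0.25), was not told apart from 0 at this depth.

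Ordered by level, *Selenop* and *Gpx1* came first in both libraries, and *Selenow* was next. *Selenof* and *Selenok* followed with overlapping intervals in YFP- cells (328–376 and 314–361), while in YFP+ cells *Selenok* (319–347) stood above *Selenof* (288–314). *Gpx4* and *Gpx3* came next in YFP- cells with overlapping intervals (178–214 and 161–195), while in YFP+ cells *Gpx4* (169.6–190.03) and *Gpx3* (71.6–85.1) were apart. With its near-identical copies added, *Gpx4* was at 305 CPM in YFP- cells, above the interval of *Gpx3* there. *Txnrd1* was the lowest of the 8 in both.

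RNA released from broken cells is captured with every cell of a droplet library, and its makeup was read from 56346 YFP- and 85373 YFP+ barcodes with 10 to 100 UMIs. *Selenop* stood at 5718 CPM and 4783 CPM in this free RNA, so that its level in cells was 0.902 and 0.920 times that of free RNA. The levels of *Selenow*, *Selenof* and *Selenok* in cells were 0.621 to 0.828 times those in free RNA, and those of *Gpx1* 0.957 and 0.982 times. *Gpx3* had 154 CPM (129–182) in the free RNA of the YFP- and 72.8 CPM (61.5–85.5) in that of the YFP+ library. The library difference of *Gpx3* was thus also found in free RNA, with a log2 ratio of −1.07 (−1.42 to −0.74). So were those of *Selenop*, at −0.26 (−0.31 to −0.21), and *Selenof*, at −0.40 (−0.57 to −0.23). *Selenow* and *Gpx4* were higher in the free RNA of the YFP+ library, at 0.21 (0.05 to 0.37) and 0.32 (0.04 to 0.61). The intervals of *Selenok*, *Gpx1* and *Txnrd1* in free RNA included 0. Of the 8 genes, none had a level in cells above 1.28 times that in free RNA, the value of *Txnrd1* in the YFP- library.

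At an equal depth of 500 UMIs per cell, a *Selenop* UMI was found in 85.9% (83.7–88.0) of YFP- cells and 82.6% (81.4–83.7) of YFP+ cells. Cells made only of free RNA would show one in 94.3% and 90.9% of cases. Without thinning the shares were 97.2% and 95.3%. *Gpx1* was found in 24.9% (22.3–27.6) and 26.2% (24.8–27.5) of thinned cells, against 29.9% and 29.4% from free RNA. *Selenow*, *Selenof* and *Selenok* were each found in 13.7% to 18.0% of cells and *Gpx4* in 7.56% (6.03–9.33) and 7.75% (6.94–8.61).

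*Gpx3* was found in 81 of 1045 YFP- cells, or 7.75% (6.20–9.54), and in 165 of 4053 YFP+ cells, or 4.07% (3.48–4.73), at 500 UMIs, and these intervals did not overlap. Free RNA would give 7.41% and 3.57%, which lie within the intervals of the cells, so these shares alone do not set *Gpx3* apart from background in either library. The unthinned shares were 24.3% and 10.2%. *Txnrd1* was found in 0.478% (0.156–1.11) and 0.518% (0.321–0.791) of thinned cells.

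**Figure D3:**
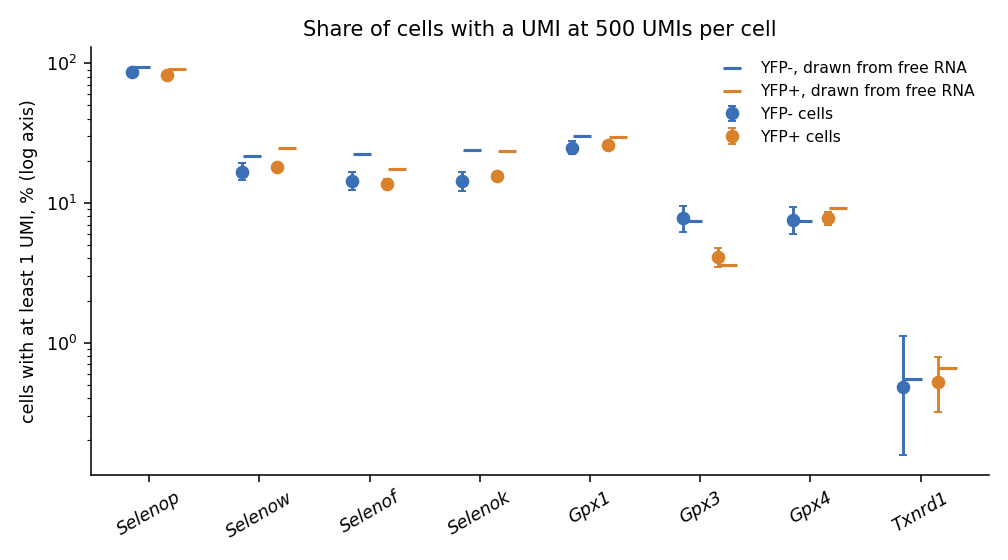
Share of cells with at least 1 UMI of each gene (log axis) after every cell was thinned to 500 UMIs, with 95% Clopper-Pearson intervals; dashes mark the share that free RNA alone would give. *Gpx3*, at 7.75% and 4.07%, is the only gene whose intervals in the libraries do not overlap, and both points lie beside their dashes.

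The spread over cells was then described with the thinned counts of each library. *Selenop* had a median of 2 UMIs per cell in both libraries and at most 11 in a YFP- and 16 in a YFP+ cell, and its variance was 1.49 times its mean in both. Cells without a *Selenop* UMI made up 14.1% of YFP- and 17.4% of YFP+ cells, where a Poisson distribution of the same mean gives 8.53% and 11.3%. In these counts *Gpx3* was spread less evenly than most genes compared. Its squared coefficient of variation exceeded that of a Poisson distribution by 2.15 in YFP- and 1.42 in YFP+ cells. This was above 1223 and 1239 of the 1310 genes with a mean of at least 100 CPM. The measure is uncertain at a mean of 0.089 and 0.043 *Gpx3* UMIs per thinned cell. The rare *Txnrd1* and *Gpx4* lay at the other end in YFP+ cells, above 3 and 73 of these genes. No thinned cell held more than 1 *Txnrd1* UMI, which alone holds this measure near its lowest value. The place of *Txnrd1*, which is also below the 100 CPM of the genes compared, therefore says nothing on how evenly it is spread. That of *Gpx4* is uncertain too, at a mean of 0.080 UMIs per thinned YFP+ cell. *Gpx4*, *Selenof* and *Selenok* in YFP+ cells and *Gpx4* in YFP- cells had a variance of 0.976 to 1.001 times their mean, and a Poisson distribution has 1.

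Cells of both libraries were grouped by Leiden clustering on 2000 variable genes, with the 8 genes and the related genes below left out, so that these genes did not form the groups. This gave 10 clusters, numbered here and named by their leading genes, and the members' levels in them are a description without a test. Levels of *Gpx3* covered the widest range, from 195 CPM (355 UMIs) in cluster 4, led by *Cyr61*, *Tcim* and *Vcam1*, to 40.6 CPM (54 UMIs) in cluster 2, led by *Tppp3*, *Lgals3*, *S100a4* and *Ccr2*, and 17.1 CPM (4 UMIs) in cluster 9, the cells with *Top2a* and *Mki67*. *Gpx3* itself came second by fold in cluster 4 among genes with at least 50 CPM and 10 UMIs in it, although it had not been used to form it. The interval of the ratio to the next cluster left out 0 only for cluster 4 against cluster 7 (127 CPM), the cells led by *Irf7* and *Ifit3*, and the 8 other neighbours in the order were not told apart. Clusters that are no neighbours could still differ, as did clusters 2 (30.5–53.0 CPM) and 6 (63.5–92.5 CPM), whose intervals did not overlap. Cluster 4 held 26.8% of the YFP- cells, 30.9% of all their UMIs and 43.8% of their *Gpx3* UMIs. For the YFP+ cells these shares were 13.7%, 15.9% and 31.7%.

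Within a library, too, *Gpx3* differed between clusters beyond counting error. In YFP- cells it was at 252 CPM (217–291) in cluster 4 and 109.7 CPM (70.3–163) in cluster 2, and in YFP+ cells at 155 CPM (133–181) and 27.0 CPM (18.2–38.6). *Gpx3* was lower in YFP+ than in YFP- cells in 9 of the 10 clusters, and in 8 of them the interval lay below 0. In the 7 clusters with more than 15 *Gpx3* UMIs in each library the log2 ratio ran from −1.98 (−2.84 to −1.18) in cluster 2 to −0.69 (−1.01 to −0.39) in cluster 4. The cells of cluster 10 also carried *Myh11* and *Acta2*. Among markers with at least 10 UMIs in this cluster, 0 of 9 macrophage genes were raised over the other cells. All 8 Schwann cell, all 6 fibroblast and all 6 mural cell genes were raised. The YFP- cells of cluster 10 had no *Gpx3* UMI among 19659, with an interval up to 187.6 CPM, and its YFP+ cells had 9. Because cluster 4 took a larger share of YFP- cells, the libraries were also compared with each cluster weighted as in the YFP- library, a choice made after seeing the data, and the log2 ratio of *Gpx3* was then −0.93.

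**Figure D4:**
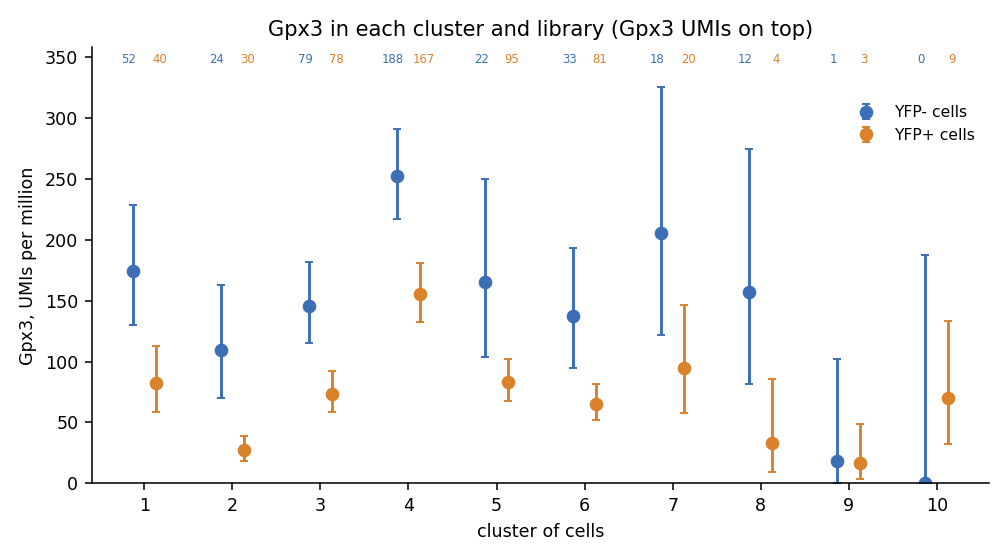
*Gpx3* level in CPM in the YFP- (blue) and YFP+ (orange) cells of each of the 10 clusters, with 95% Poisson intervals and the number of *Gpx3* UMIs above each point. The level of YFP- cells is above that of YFP+ cells in 9 clusters, and cluster 4 has the highest level in both libraries, 252 and 155 CPM.

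*Selenop* had the highest level of the 8 genes in every cluster. Its levels ran from 6196 CPM in cluster 8, which is led by *Cd209g*, *Cd209f* and *Fcna*, and 5740 CPM in cluster 4, down to 2550 CPM in cluster 9 and 2314 CPM in cluster 10, a 2.68-fold range. Of the 9 steps in this order, 5 were beyond counting error. *Selenop* was lower in YFP+ cells in 8 clusters, in 5 of them beyond counting error, and in cluster 8 it was higher, at 6510 against 5703 CPM (log2 ratio 0.19, 0.02–0.36). With clusters weighted as in the YFP- library the ratio of *Selenop* was −0.10.

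The intracellular peroxidases had other orders. *Gpx1* was highest in cluster 2 with 895 CPM (845–947), followed by clusters 9 and 8 with 857 and 838 CPM, which were not told apart from it, and lowest in cluster 10 with 398 CPM. *Gpx4* was highest in cluster 10 with 472 CPM, from 70 UMIs, then in clusters 9 and 8 with 328 and 327 CPM, and lowest in cluster 3 with 149 CPM, where the reservation on its pseudogene copies also applies. In cluster 10 no macrophage marker was raised, while those of Schwann, fibroblast and mural cells were. The part of such cells in its *Gpx4* level was not tested. Clusters 2 and 4 thus stood in opposite order for *Gpx1* (895 and 668 CPM) and *Gpx3* (40.6 and 195 CPM).

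*Selenow* and *Selenok* were both highest in cluster 10, at 749 and 493 CPM, and lowest in cluster 9, at 289.9 and 226 CPM, and *Selenof* was highest in cluster 9 at 422 CPM and lowest in cluster 6, led by *Il1b* and *Cxcl2*, at 251 CPM. Cluster 10 is small, with 102 cells at a median of 983 UMIs. Its markers of mural, Schwann and fibroblast cells were raised, and their part in the levels of *Selenow* and *Selenok* was not tested. Between the neighbours in the order, no step of *Selenok*, 1 step of *Selenof* and 2 steps of *Selenow* were beyond counting error. *Txnrd1*, at 8.12 to 17.3 CPM from 2 to 23 UMIs, had no step beyond it. Clusters further apart in the order could still differ. For *Selenok*, the intervals of clusters 10 (386–619 CPM) and 6 (269–325 CPM) did not overlap. The clusters led by *Ccl12* and *Ccl7* (cluster 1), by *Gm10925* and *mt-Co2* (cluster 3) and by *Fhl3*, *Slc39a1* and *Notch2* (cluster 5, with a median of 947.5 UMIs) had levels within −0.31 to 0.28 (log2) of those of all cells for the other 7 genes.

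**Figure D5:**
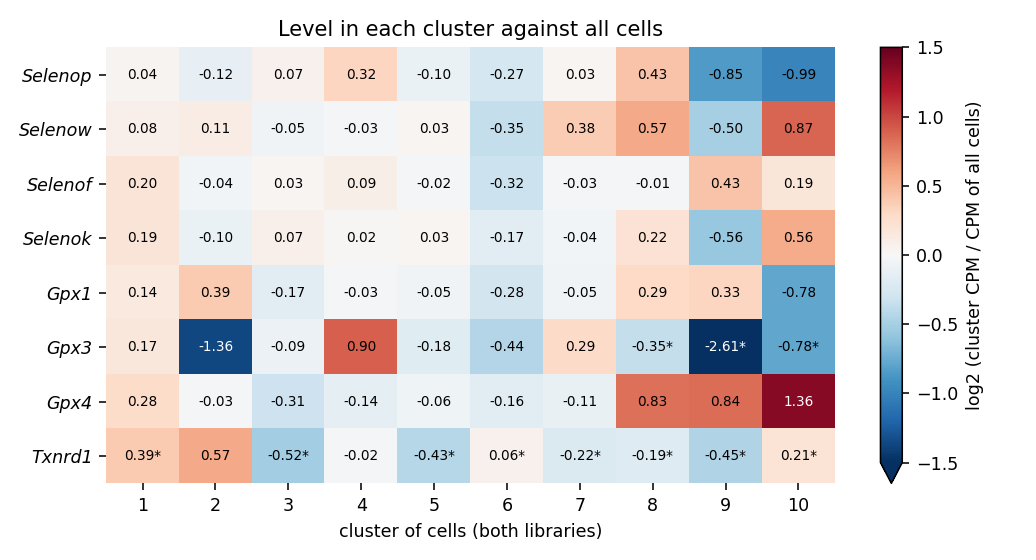
Level of each gene in each cluster against its level in all cells, as log2 of the ratio of CPM values, with an asterisk where the cluster had fewer than 20 UMIs of the gene. Among clusters 1 to 7, *Gpx3* has both the highest value (0.90 in cluster 4) and the lowest (−1.36 in cluster 2), and colours end at 1.5 in either direction.

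Across single cells, sparse counts limit what correlations of the 8 genes can show. At 500 UMIs, 73.8% of YFP+ cells held no *Gpx1* UMI and 99.5% of YFP- cells no *Txnrd1* UMI. Counts this sparse pull r towards 0, so how far the genes vary together cannot be told from it. At 500 UMIs per cell the 28 pairs had Pearson r from −0.06 to 0.05 in YFP- cells (n = 1045) and from −0.04 to 0.05 in YFP+ cells (n = 4053), and the pair of the secreted proteins, *Selenop* and *Gpx3*, was at 0.05 in both. At 1000 UMIs this pair was at 0.087 (n = 895) and 0.111 (n = 2869), and without thinning at 0.123 and 0.091. Correlations this weak in sparse counts are no finding, and those without thinning also share the depth of a cell. For each gene, the genes most like it were ranked by the smaller of the r values of the libraries, among 1309 other genes with a mean of at least 100 CPM. Sparse counts pull r towards 0 less for abundant genes, so this ranking favours them. In YFP- cells *Apoe* was at 27396 and *Lyz2* at 11859 CPM. *Selenop* was most like *Apoe*, an apolipoprotein (r = 0.18 and 0.25), *Ftl1*, the ferritin light chain (0.14 and 0.15), and *Lyz2*, a lysozyme (0.14 and 0.14). *Gpx3* was also most like *Apoe* (0.09 and 0.09), then *Jun* (0.11 and 0.05) and *Selenop*. The first gene was *S100a6* for *Selenow*, *Pla2g2d* for *Selenof*, *Pnn* for *Selenok*, *Rtf1* for *Gpx1* and *Ndufa7* for *Txnrd1*, with r below 0.1 in at least 1 library in all 5 cases.

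The 16 other selenoprotein genes came to a sum of 508 CPM for the YFP- and 518 CPM for the YFP+ library, less than *Gpx1* alone. Of these, 8 passed the filter of 20 CPM, and none was past 1.5-fold. *Selenom*, of the endoplasmic reticulum, was at 127 and 119 CPM and *Selenot*, of the same compartment, at 79.4 and 66.7 CPM. *Selenos*, a membrane protein of the pathway that removes misfolded proteins from that compartment, was at 106 CPM (93.7–120.1) and 131 CPM (123–140), with a log2 ratio of 0.30 (0.10–0.51), and no other selenoprotein had an interval above 0. The methionine sulfoxide reductase *Msrb1*, *Selenoh* and *Selenon* were at 46.7 and 52.5 CPM, 46.3 and 48.6 CPM, and 24.0 and 18.7 CPM. The mitochondrial reductase *Txnrd2* was at 22.7 and 26.7 CPM, and *Sephs2*, which makes the selenium donor for selenocysteine and is a selenoprotein itself, at 21.1 and 19.3 CPM. The deiodinases *Dio1*, *Dio2* and *Dio3*, *Gpx2* and *Selenov* had no UMI in any cell. The interval then reaches 1.53 CPM among YFP- cells and 0.547 CPM among YFP+ cells.

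Of 11 genes that make selenocysteine, insert it or take up *Selenop* protein, 6 passed the filter, and none was past 1.5-fold, with log2 ratios from −0.32 to 0.33. The elongation factor gene *Eefsec* was at 27.3 and 25.5 CPM and *Secisbp2*, which binds the hairpin, at 26.1 and 23.3 CPM. The receptors for *Selenop* protein, *Lrp8* and *Lrp2*, had no UMI in any cell. The glutathione peroxidases without selenocysteine, *Gpx5*, *Gpx6*, *Gpx7* and *Gpx8*, were all below the filter. In the lists of glutathione synthesis and use (7 of 17 genes passing), thioredoxins and peroxiredoxins (10 of 10) and other antioxidant enzymes (5 of 9), no gene was past 1.5-fold either. The thioredoxin inhibitor *Txnip* had 566 CPM (537–597) among YFP- cells, the highest level of these lists there, and 447 CPM (432–464) among YFP+ cells (log2 ratio −0.34, −0.43 to −0.25), and the peroxiredoxin *Prdx1* was at 462 and 523 CPM (0.18, 0.08–0.28), above *Txnip* in YFP+ cells. *Gpx3* was the only gene past 1.5-fold among the 43 genes of all these lists and the 8 genes together that passed the filter, beside 7.30% of all genes compared and, among protein-coding genes, 92 lower and 77 higher of 5149.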

How the data were processed

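Single-cell RNA-seq libraries of sorted YFP- and YFP+ sciatic nerve macrophages were analysed from the matrices of UMI counts per gene and barcode that the authors deposited, 1 library per group. The submitters' processing notes name Cell Ranger 3.0.2, Seurat 2.2.0 and GRCm38, with no role or order given. The study's methods name another version of Cell Ranger, and which version made the deposited matrices is not settled. The annotation release is not given in the sources used here. The deposited matrices hold all barcodes, and barcodes with at least 500 UMIs and 200 genes were kept as cells. The study's own filter on mapped reads per cell could not be applied to UMI counts, so the cells are not the same set. No doublet caller was run, and leaving out the 5% of cells with the most UMIs was an alternative. Barcodes with 10 to 100 UMIs gave the free RNA.

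UMIs were summed per library and given in CPM (per 1000000 UMIs) with exact Poisson intervals (95%). Log2 ratios used a pseudocount of 1 CPM and an interval conditional on the summed counts, and shares were given Clopper-Pearson intervals after each cell was thinned at random to 500 UMIs. A gene was past the fold where it differed by 1.5-fold or more at a mean of at least 20 CPM. Cells were clustered with scanpy 1.11.5 (2000 variable genes, 20 principal components, 20 neighbours, Leiden resolution 0.8, seed 0). Other calculations ran under Python 3.11.15 with scipy 1.17.1 and numpy 2.4.6. Only the log2 ratio with its interval and the thinning were tested on simulated data. The ratio was tested on Poisson counts, which hold no further spread between cells, so spread between cells was not part of that test. Positions, codons and near-identical copies came from GENCODE M21.

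The members and gene lists were chosen with earlier results of these data known. Genes named were the 8 members, further selenoproteins with a mean of at least 20 CPM, genes of the related lists past 1.5-fold, and the 3 genes most like each member across cells, of which the text gives those of *Selenop* and *Gpx3* and the first of 5 others. The genes most like *Gpx4* are not reported here. *Eefsec*, *Secisbp2*, *Lrp8*, *Lrp2*, *Txnip*, *Prdx1* and the selenoproteins and peroxidases below 20 CPM fall outside this rule and were named after their values were seen. Alternatives changed the cell filter, weighting, depth, scaling, pseudocount, free RNA, doublets, other cell types, shared barcodes and cluster resolution.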

Additional observations from a re-analysis of the deposited data

How the results depend on the processing

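*Gpx3* was the only one of the 8 genes past 1.5-fold under each of the 12 alternatives, with log2 ratios from −1.24 to −0.93, and the ratios of *Gpx3*, *Selenop* and *Selenof* kept their sign. Some alternatives could change little. The mitochondrial limit left out 3 YFP- cells and 1 YFP+ cell, and leaving out shared barcodes took 7 from each library. Free RNA had a *Gpx3* ratio of −1.07, near that of cells, so removing 10% of it could hardly move the ratio. The ratios of *Gpx4*, *Selenok*, *Selenow* and *Txnrd1*, whose intervals include 0 when no pseudogene copies are added, changed sign under at least 1 alternative. With every cell thinned to 500 UMIs, the ratio was −0.17 for *Selenop* and 0.10 for *Gpx1*, and 932 genes in place of 404 were past 1.5-fold. With clusters weighted as in the YFP- library it was −0.93 for *Gpx3* and −0.10 for *Selenop*, and with pseudogene copies added it was −0.45 for *Gpx4*. Adding copies changes the UMIs counted for *Gpx4*, and weighting gives both libraries the same cluster shares. Weighting by itself does not force a shift. Under it *Gpx1* was at 0.013, beside 0.008 in the main setting, and *Selenow* at 0.036, beside 0.020. At equal cluster shares the ratios of *Gpx3* and *Selenop* were smaller in size, going from −1.17 to −0.93 and from −0.23 to −0.10. Thinning leaves fewer UMIs per gene, and the cause of the shifts under it was not tested. The other 78 planned and 14 added ratios moved by less than their counting interval, and the gene count stayed between 401 and 493 under 10 alternatives. Of the correlations between members, 20 in YFP- and 22 in YFP+ cells moved at another depth by more than the margin their number of cells gives, and 36 and 34 did not. No paired analysis was possible because each group is 1 library without a replicate number, and for the same reason no replicate could be left out. Animal-to-animal spread is therefore unknown, and *Txnrd1*, with 34 and 73 UMIs, is too rare for a ratio of its size to be told apart from 0.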
